A study of Mus musculus with 11 samples.

Results

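Chromatin accessibility was compared between basal cells of terminal end buds (TEBs) and basal cells of the ducts behind them in the pubertal mouse mammary gland. The comparison took the 3 basal TEB libraries (replicates 1, 2 and 3) and the 2 basal duct libraries (replicates 1 and 3), which are 5 of the 11 samples of the series. Its features were the merged ATAC-seq peaks, called sites here, with at least 1 count in these 5 libraries, and 153358 of the 153396 sites met this. The question was which distal sites, genes and stretches of neighbouring sites differed between the basal cells of the 2 structures, and how far the answer depended on the scaling of libraries of unequal depth. Female mice of the C57BL/6 strain carried the Ecad-GFP reporter of E-cadherin and were 5 weeks old. In both groups the cells were micro-dissected as TEBs or ducts and sorted as Lin-CD29+CD24+ with low Ecad-GFP, while the luminal TEB and luminal duct libraries (replicates 1 to 3 each), used only for values set beside the basal ones, came from cells with high Ecad-GFP. Replicates came from independent pools of mice, nothing in the sources says whether libraries of the same number share a pool, and the study discarded a further basal duct sample because it held few cells.

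TEBs are the bulbous tips of the ductal tree that grow through the fat pad in puberty and leave ducts behind them. Their outer basal layer is the cap cell layer, which gives rise to the myoepithelial cells that surround the duct. In ATAC-seq a transposase cuts open chromatin, so counts at a site follow how accessible it is. Sites near a transcription start site (TSS) are mostly promoters, open in many cell types, whereas distal sites include enhancers, whose accessibility differs more between cell states. Distal sites are commonly assigned to the nearest gene, although an enhancer need not act on that gene.

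The counts in sites were 9986384 and 6816197 in the basal duct libraries (replicates 1 and 3) and 1821942, 2489582 and 2040392 in the basal TEB libraries (replicates 1, 2 and 3). The mean of the duct libraries was 3.97 times that of the TEB libraries, so a site at the median held 15 to 20 counts in a duct library and 6 in a TEB library. The duct libraries were alike (Spearman correlation of scaled counts over all sites 0.954) and the TEB libraries less so (0.7 to 0.754). Sites within 500 bp of a TSS took 40.0% to 42.7% of duct counts and 31.1% to 35.7% of TEB counts. Soft-masked sites, those with over 50% of their bases marked as repeats in the genome sequence, took 2.4% to 2.45% of duct counts and 16.2%, 7.03% and 9.75% of the counts of TEB replicates 1, 2 and 3. The part of depth and of these shares in the differences below was not tested beyond the other scalings given here.

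The labelled cell type was checked at the promoters of marker genes. The 10 basal markers, such as the keratin gene Krt14 and the transcription factor gene Trp63, summed to 364.2 to 421.9 CPM (read counts relative to the library's TMM-scaled total) in the duct libraries and 201.6 to 295.9 in the TEB libraries, against 74.1 to 100.5 in the luminal libraries. The 10 luminal markers summed to 164.2 to 186.8 in basal duct, 78.2 to 100.9 in basal TEB and 298.7 to 392.4 in the luminal libraries. Fibroblast markers summed to 93.0 to 111.1 in basal duct and 50.4 to 62.5 in basal TEB, with a site at 5 of 11 promoters, of which 3 were higher in duct, and with no site at those of Col1a1, Col3a1 or Lum. Lists for endothelial, immune, adipocyte, pericyte, Schwann and keratinocyte cells had 2 to 4 promoters with a site each, and no site at those of Pecam1, Ptprc, Cd3e, Adipoq or Krt1. Among those promoters 1 endothelial and 1 Schwann cell marker were higher in duct and none in TEB. Of the 10 basal and the 10 luminal marker promoters 4 and 5 were higher in duct and none in TEB. Promoters were higher in duct for 34.7% of all genes with a promoter site, so calls for duct were not particular to these markers. The cells were measured in bulk, so fewer cells with an open site and a less open site in every cell cannot be told apart, and the part of other cell types in the results was not tested.

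The distal sites that differed most were of unlike kinds in the 2 directions, and the sequences of 4 sites of each direction are printed so that their makeup can be seen beside their values. Each is the central 300 bases of the site on the plus strand of GRCm38 (mm10), read from the RefSeq genome. Capitals mark matches, on either strand, to AP-1 (TGACTCA or TGAGTCA), TEAD (CATTCC) and RUNX (TGTGGT or TGCGGT) motifs, and in the 2 tandem repeats they mark instead the first 52 (N6amt1) or 61 bases (1500015O10Rik), the spacing of the array. The first 4 sites were more accessible in basal TEB. Trpc7, whose TSS lies 260.2 kb away, is intergenic at chr13:57156246-57156545, Rgs6 is intergenic at chr12:82493255-82493554 with its TSS 123.0 kb away, N6amt1 is intergenic at chr16:86820866-86821165 with its TSS 532.9 kb away, and 1500015O10Rik lies in an intron of Uxs1 at chr1:43778098-43778397, 47.0 kb from the TSS of the gene it is named for.
Trpc7: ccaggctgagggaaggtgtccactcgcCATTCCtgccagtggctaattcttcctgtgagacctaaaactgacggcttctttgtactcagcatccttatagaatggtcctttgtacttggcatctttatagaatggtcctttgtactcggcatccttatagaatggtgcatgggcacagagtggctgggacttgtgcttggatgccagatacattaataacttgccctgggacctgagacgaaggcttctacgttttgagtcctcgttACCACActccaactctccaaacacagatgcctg
Rgs6: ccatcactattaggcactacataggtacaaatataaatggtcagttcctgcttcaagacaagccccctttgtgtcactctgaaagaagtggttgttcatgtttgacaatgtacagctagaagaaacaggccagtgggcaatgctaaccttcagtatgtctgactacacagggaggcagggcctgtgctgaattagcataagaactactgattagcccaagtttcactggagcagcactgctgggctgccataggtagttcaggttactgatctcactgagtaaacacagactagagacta
N6amt1: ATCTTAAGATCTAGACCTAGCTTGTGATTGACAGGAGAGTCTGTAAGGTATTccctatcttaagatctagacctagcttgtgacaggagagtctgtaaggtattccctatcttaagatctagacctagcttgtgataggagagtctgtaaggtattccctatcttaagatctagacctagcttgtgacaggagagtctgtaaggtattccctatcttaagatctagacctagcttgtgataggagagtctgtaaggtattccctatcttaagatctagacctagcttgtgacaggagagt
1500015O10Rik: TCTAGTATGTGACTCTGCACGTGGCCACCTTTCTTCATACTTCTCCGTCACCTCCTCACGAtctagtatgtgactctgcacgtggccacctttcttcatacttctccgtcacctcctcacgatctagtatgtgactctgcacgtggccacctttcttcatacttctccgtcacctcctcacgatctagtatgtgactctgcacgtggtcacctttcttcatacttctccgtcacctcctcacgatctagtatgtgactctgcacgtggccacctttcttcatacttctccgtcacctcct

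The next 4 sites were more accessible in basal duct. Brinp1 is intergenic at chr4:69622429-69622728 with its TSS 667.6 kb away, Kifc3 lies in an intron of Kifc3 at chr8:95162610-95162909, 19.8 kb from its TSS, Fmnl2 lies in an intron of Fmnl2 at chr2:52952318-52952617, 94.3 kb from its TSS, and Pmp22 is intergenic at chr11:63115078-63115377, 13.3 kb from its TSS.
Brinp1: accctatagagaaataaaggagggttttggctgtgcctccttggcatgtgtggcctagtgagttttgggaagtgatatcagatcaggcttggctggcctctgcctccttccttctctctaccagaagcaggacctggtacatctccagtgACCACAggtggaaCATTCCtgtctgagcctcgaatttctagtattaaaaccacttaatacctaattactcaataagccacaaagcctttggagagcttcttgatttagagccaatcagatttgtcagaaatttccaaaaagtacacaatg
Kifc3: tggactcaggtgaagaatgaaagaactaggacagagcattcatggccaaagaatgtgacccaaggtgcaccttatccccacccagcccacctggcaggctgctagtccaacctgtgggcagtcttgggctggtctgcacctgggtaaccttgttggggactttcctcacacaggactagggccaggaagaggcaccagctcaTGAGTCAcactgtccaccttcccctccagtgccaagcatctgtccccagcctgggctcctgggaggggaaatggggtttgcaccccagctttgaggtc
Fmnl2: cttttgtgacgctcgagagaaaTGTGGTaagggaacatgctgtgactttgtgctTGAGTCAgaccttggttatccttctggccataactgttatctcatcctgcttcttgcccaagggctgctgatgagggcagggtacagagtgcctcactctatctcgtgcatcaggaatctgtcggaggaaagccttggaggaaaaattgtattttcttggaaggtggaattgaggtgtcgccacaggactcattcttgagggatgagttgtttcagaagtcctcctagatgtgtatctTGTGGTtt
Pmp22: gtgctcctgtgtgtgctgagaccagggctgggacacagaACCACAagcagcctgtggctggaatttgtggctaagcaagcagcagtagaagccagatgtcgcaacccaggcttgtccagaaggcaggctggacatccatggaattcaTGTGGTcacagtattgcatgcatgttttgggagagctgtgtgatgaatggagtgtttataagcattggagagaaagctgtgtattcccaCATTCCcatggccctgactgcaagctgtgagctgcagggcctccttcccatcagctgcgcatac

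The 4 duct sites printed each held at least 1 of the 3 marked motifs, and of the other 2 leading duct sites, described below, Dusp1 held 1 RUNX match and Clic6 none of the 3. Kifc3 held 1 AP-1 match, Fmnl2 held 1 AP-1 and 2 RUNX matches, Brinp1 held 1 TEAD and 1 RUNX match, and Pmp22 held 1 TEAD and 2 RUNX matches. Of the TEB sites, Trpc7 held 1 TEAD and 1 RUNX match and Rgs6 held none of the 3, nor did the 2 leading TEB sites that are not printed, Gtf2a1 and Spdye4c. The N6amt1 window was a tandem array with a spacing of 52 bases (89.9% of its bases equal to the base 52 positions away), and the 1500015O10Rik window was an array with a spacing of 61 bases (99.4%), although neither site was soft-masked by over 50%. The place of these windows among all distal sites is given further below.

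With the main scaling, described below, more distal sites were called for basal TEB than for basal duct, and more promoter sites for basal duct. The distal balance turned when soft-masked sites were left out, as given further below. Among the 106466 distal sites, over 10 kb from the nearest TSS of a protein-coding gene, 10937 (10.3%) were more accessible in TEB and 7084 (6.65%) in duct (edgeR exact test, FDR 0.05). Among the 16630 promoter sites, within 500 bp of a TSS, 112 (0.673%) were more accessible in TEB and 5311 (31.9%) in duct. Over all sites the counts were 12605 (8.22%) in TEB and 14924 (9.73%) in duct. The number of TEB sites grew with distance, with 3895 TEB sites against 3637 duct sites from 10 to 50 kb and 7042 against 3447 over 50 kb. Soft-masked sites were 1907 of these TEB sites from 10 to 50 kb and 5047 over 50 kb. Of the 3983 distal TEB sites that were not soft-masked 1995 (50.1%) lay over 50 kb away. The growth with distance thus lay at soft-masked sites, and the other TEB sites were fewer than duct sites over 50 kb. Without duct replicate 1 the distal calls were 855 in TEB and 695 in duct and the promoter calls 16 and 178, and without duct replicate 3 the distal calls were 1437 and 1896 and the promoter calls 21 and 1239, with the single remaining duct library assumed to vary like the TEB libraries. Without TEB replicate 3 the promoter calls for duct were 3180. Distal sites made up 86.8% of all sites more accessible in TEB and 47.5% of those more accessible in duct.

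**Figure D1:**
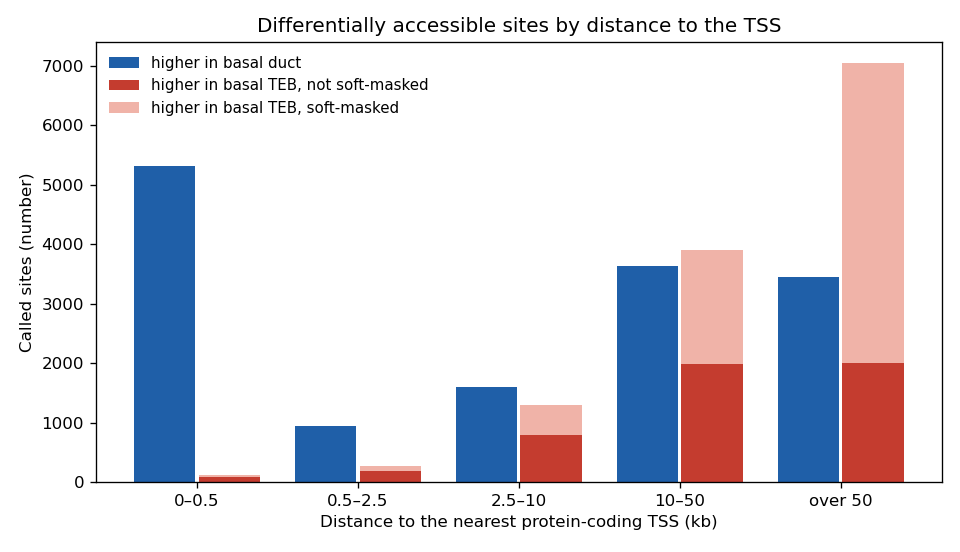
Number of differentially accessible sites (y axis) by distance of the site to the nearest protein-coding TSS in kb (x axis), for sites higher in basal duct and for sites higher in basal TEB, the latter divided by soft-masking. Duct sites were most frequent within 500 bp of a TSS (5311) and TEB sites over 50 kb away (7042, of which 5047 were soft-masked).

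The balance of the 2 directions depended on the scaling, although no scaling called a distal site in the opposite direction. The main scaling, the trimmed mean of M-values (TMM), left the median log2 fold change (TEB over duct) at 0.02 over all sites, -0.64 over promoter sites and 0.21 over distal sites. TEB sites were 60.7% of the distal calls with TMM, 67.8% with DESeq2 size factors, 74.0% with library totals, 55.0% with TMM from distal sites that were not soft-masked, 74.3% with loess offsets and 58.5% with offsets for GC content. With TMM computed from promoter sites, which sets the promoters equal, TEB sites were 92.4% of the distal calls (17699 against 1464), promoter calls were 772 in TEB and 543 in duct, and the median over all sites moved to 0.67. In none of these 6 scalings was a distal site called in the opposite direction. Of the 10937 distal TEB sites 7833 (71.6%) were called in all 6, against 1463 (20.7%) of the 7084 distal duct sites and 441 (8.3%) of the promoter sites called for duct. Most of the 6 scalings moved the median over all sites towards TEB, and only TMM from distal sites not soft-masked moved it towards duct (-0.06). TMM from promoter sites alone kept 10936 of the distal TEB calls and 1464 of the distal duct calls. These shares therefore do not compare how firm the 2 directions are.

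**Figure D2:**
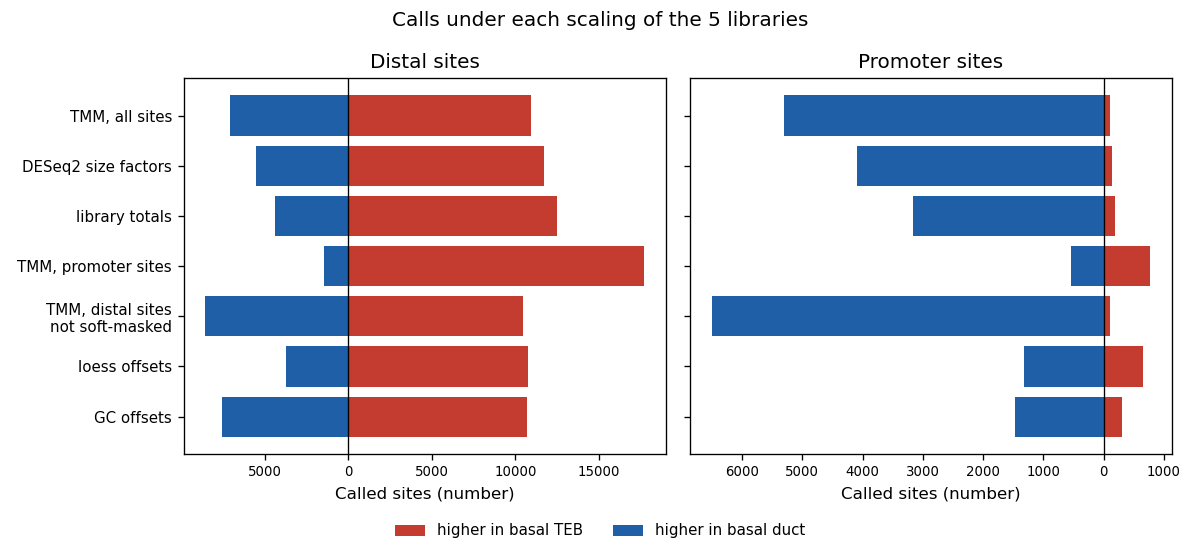
Number of called distal sites (left) and promoter sites (right) under each of 7 scalings of the 5 libraries, with sites higher in basal TEB drawn to the right of 0 and sites higher in basal duct to the left. Distal TEB calls ran from 10479 to 17699 and distal duct calls from 1464 to 8560, while promoter duct calls fell from 5311 to 543 when TMM was taken from promoter sites.

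Unscaled counts are given here as a description only, since the sites were called from these same counts. The median TEB site held 4 and 3 counts in the duct libraries and 11, 7 and 8 in the TEB libraries, although the TEB libraries were smaller. At 4368 (39.9%) of the 10937 distal TEB sites the unscaled counts of all 3 TEB libraries lay above those of both duct libraries, against 539 (0.609%) of the 88445 distal sites that were not called. The median duct site held 112.0 and 75.5 counts in the duct libraries and 7, 11 and 9 in the TEB libraries.

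The 2 sets of distal sites differed in width, repeat content and position. Distal TEB sites had a median width of 242 bp and lay a median 86.6 kb from a TSS, and 66.4% were intergenic. Distal duct sites were wider (694 bp) and nearer (48.0 kb), and 53.9% were intergenic. Of the distal TEB sites 6954 (63.6%) were soft-masked, against 44 (0.621%) of the duct sites and 4.87% of the sites not called. The change was larger in the TEB direction, with a median log2 fold change of 3.15 at soft-masked and 2.39 at other TEB sites against -1.52 at duct sites. When soft-masked sites were left out before scaling, the distal calls were 4461 in TEB and 5642 in duct, so TEB sites were 44.2% of them.

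Tandem arrays like those near N6amt1 and 1500015O10Rik recurred among the TEB sites. A window was counted as an array when at least 80% of its bases equalled the base at a fixed spacing of 10 to 150 bases, a measure chosen after these sequences had been seen. It held for 259 (6.5%) of the 3983 distal TEB sites that were not soft-masked, 338 (4.86%) of the soft-masked ones, 5 (0.0706%) of the duct sites and 193 (0.218%) of the sites not called. Chromosome X also stood out, with 26.9% of its 2792 distal sites more accessible in TEB against 9.76% on the autosomes, where chromosomes ranged from 6.88% (chromosome 11) to 12.3% (chromosome 14). This was found at soft-masked sites (75.3% against 60.1%) and not at the others (3.81% against 4.19%). Repeat copies share reads, so counts at soft-masked sites and arrays are uncertain as to which copy they came from.

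Motif matches were more frequent in duct windows for 11 of the 21 motifs searched, less frequent for 9 and equal at 3 digits for 1 (CACCTG), against TEB windows that were not soft-masked. The motifs given here were chosen after their values were seen. AP-1, the FOS and JUN dimer, matched in 27.5% of distal duct windows, 19.0% of distal TEB windows that were not soft-masked, 7.83% of all distal TEB windows and 22.7% of all 106466 distal windows of 300 bases. TEAD, the partner of YAP and TAZ, matched in 30.3% of duct, 18% of TEB (not soft-masked) and 22.6% of all windows, and RUNX in 31.6%, 23.1% and 27.2%. NFI matched in 27.8%, 21.7% and 23.0%, and STAT in 14.2%, 8.99% and 10.1%. The SOX motif (ACAATG or ACAAAG) and the homeobox motif (TAATTA) were among the 9 that went the other way, with 39.3% of duct, 47.3% of TEB and 41.3% of all windows for SOX and 5.91%, 9.54% and 6.84% for homeobox. The others of the 9 included FOX (11.2%, 16.8% and 17.7%) and GRHL (2.09%, 4.44% and 3.42%). The shares are descriptions of letters in the window, on both strands, and were not tested.

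The leading sites of both directions were taken only from called sites whose groups did not overlap, so their separation follows from the selection. The leading TEB sites were open in every TEB library and had low levels in both duct libraries, with a mean 8.84 to 36.5 times higher in TEB. The site near Trpc7, a cation channel gene, had 0.813 and 0.304 CPM in the duct libraries (replicates 1 and 3) and 18.5, 21.4 and 27.4 in the TEB libraries (replicates 1, 2 and 3), a log2 fold change of 5.19 ± 0.4 (SE between libraries, adjusted p = 8.5e-21). The site near Rgs6, a regulator of G protein signalling, had 0.697 and 0.913 CPM in duct and 18, 34.4 and 21.2 in TEB (4.91 ± 0.3, adjusted p = 4.1e-20). Both sites were nearly closed in duct and the groups were far apart. The array near 1500015O10Rik, the gene of a secreted peptide precursor also known as Ecrg4, had 3.14 and 3.2 CPM in duct and 65.3, 39.2 and 43.3 in TEB (3.94 ± 0.22, adjusted p = 4.5e-21). The array near N6amt1, a methyltransferase gene, had 6.74 and 8.67 CPM in duct and 65.8, 56.2 and 82.1 in TEB (3.14 ± 0.23, adjusted p = 2.5e-17). These arrays were the most open of the TEB sites named, and their lowest TEB library lay well above their highest duct library. A site in the untranslated region of Gtf2a1, a subunit gene of the general transcription factor TFIIA, had 1.39 and 1.83 CPM in duct and 21.1, 31.2 and 18.5 in TEB, and a site near Spdye4c, of the Speedy family of cell cycle regulators, had 0.697 and 1.67 in duct and 20.6, 18.2 and 12.8 in TEB (both 3.88 on the log2 scale). The 2 soft-masked sites with the smallest p both lay in 1 intron of Ddx55, at log2 fold changes of 4.74 and 4.72.

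The leading duct sites were open in both duct libraries and had low levels in TEB, with a mean 7.12 to 19.1 times higher in duct. The site near Brinp1, a gene known from neural tissue, had 64.5 and 58.6 CPM in the duct libraries and 6.69, 6.33 and 5.74 in the TEB libraries, a log2 fold change of -3.3 ± 0.09 (SE between libraries, adjusted p = 3e-20). The site near Clic6, of the chloride intracellular channel family, had 96.1 and 75.2 CPM in duct and 11.3, 11.9 and 12.8 in TEB (-2.83 ± 0.18, adjusted p = 1.6e-17). Both were strongly open in duct and still detected in every TEB library. The intronic site of Kifc3, a minus-end-directed kinesin gene, had 32.2 and 32.4 CPM in duct and 4.11, 1.19 and 2.65 in TEB (-3.65 ± 0.43, adjusted p = 2.2e-16). The intronic site of Fmnl2, a formin that builds actin filaments, had 30.2 and 25.4 CPM in duct and 0, 2.77 and 3.09 in TEB (-3.74 ± 0.97, adjusted p = 7.7e-16). TEB replicate 1 had no count at the Fmnl2 site, and no TEB library came near the duct libraries at either site. The site near Dusp1, a phosphatase that switches off MAP kinases, had 27.2 and 24.2 CPM in duct and 1.03, 2.37 and 2.65 in TEB (-3.62 ± 0.34, adjusted p = 5.9e-15). The site near Pmp22, a gene of myelin and of growth-arrested cells, had 22.5 and 17.6 CPM in duct and 0, 2.77 and 0 in TEB (-4.26 ± 0.96, adjusted p = 6.2e-15). All 12 sites were called in the same direction under each of the 6 other scalings and without each of the 5 libraries in turn.

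**Figure D3:**
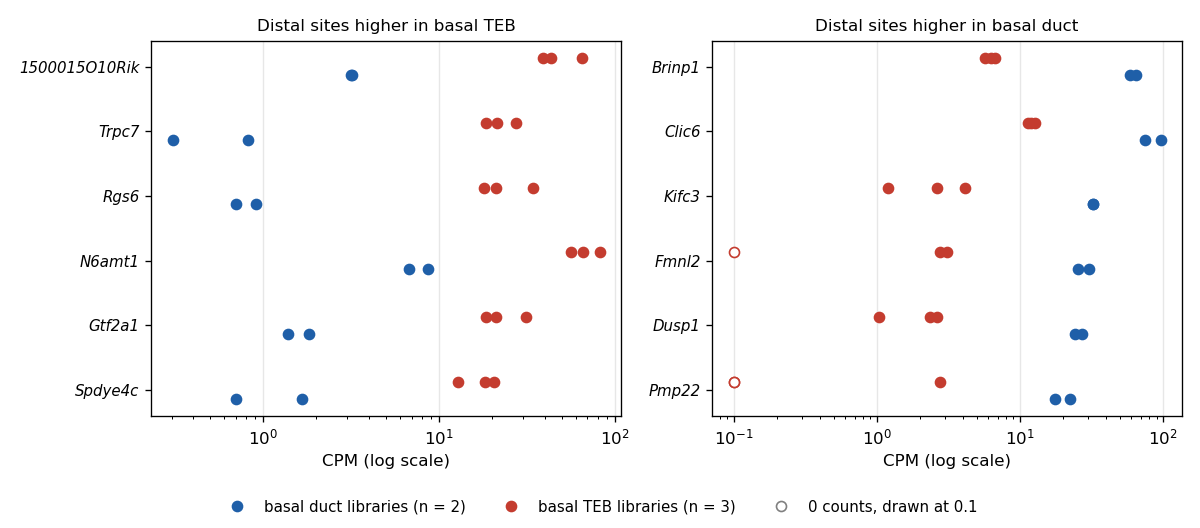
Accessibility in CPM (x axis, log scale) of the 6 distal sites per direction with the smallest p among those not soft-masked, named by the nearest gene, with 1 point per library. Sites had to be called with groups that did not overlap and a mean level above the median of distal sites. By this rule the 3 basal TEB libraries lay above both basal duct libraries on the left and below them on the right. Libraries with 0 counts are drawn as open circles at 0.1.

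At these sites the difference between TEB and duct was smaller in the luminal than in the basal cells. The luminal log2 change (TEB over duct) was 0.25 at Trpc7, 0.38 at 1500015O10Rik, -0.04 at N6amt1, 1.27 at Rgs6 (adjusted p = 0.06, exact test), 0.62 at Gtf2a1 and 0.23 at Spdye4c. At the duct sites it was -0.82 at Brinp1, -0.83 at Pmp22, -0.3 at Kifc3, -0.06 at Clic6 and Fmnl2 and 0.02 at Dusp1. None of the 12 passed the threshold. The test of the difference between the basal and the luminal change passed at all 12 sites (edgeR quasi-likelihood test, adjusted p from 3.6e-09 to 0.00079). The luminal level itself varied, from 0.558 to 1.27 CPM at the Trpc7 site, near the basal duct level, to 47.3 to 69.0 CPM at the Clic6 site, where all luminal libraries lay above basal TEB. Over all 10937 distal sites higher in basal TEB, 89 were also higher in luminal TEB and 20 in luminal duct (exact test). At 4231 (48.5%) of the 8719 that entered the interaction test the basal change exceeded the luminal one. Of the 7084 distal duct sites 40 were also higher in luminal duct and 25 in luminal TEB, and 3852 of 6880 (56.0%) passed the interaction test. For comparison, of the 88445 distal sites not called between the basal groups 337 were higher in luminal duct and 253 in luminal TEB. All 6 luminal libraries lay below both basal duct libraries at 5426 (76.6%) of the 7084 distal duct sites, with luminal CPM scaled separately. They lay below the basal TEB libraries at 43.2% of the distal TEB sites that were not soft-masked and 42.4% of the soft-masked ones. Of the distal sites not called 5.68% passed the interaction test, in either direction. The basal values that enter the interaction and these comparisons of levels are the same that chose the sites.

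Summing the distal sites by nearest gene gave 13276 gene loci, of which 2410 (18.2%) were more accessible in TEB and 1438 (10.8%) in duct, with a median log2 fold change of 0.11. Loci with 3 or more distal sites called in 1 direction and none in the other numbered 765 for TEB and 373 for duct, while 1504 loci had sites called both ways. Under all 6 other scalings 1418 TEB loci and 109 duct loci kept their call. TMM from promoter sites alone kept 2410 TEB loci and 109 duct loci. Counts of calls held under all 6, here and in the gene lists below, therefore do not compare how firm the 2 directions are. The promoter of the TEB loci was more accessible in TEB for 21 (1.54%) of the 1367 with a promoter site, against 0.507% of all loci, and in duct for 488 (35.7%). Of the 1227 duct loci with a promoter site, 557 (45.4%) also had a promoter more accessible in duct, against 38.8% of all loci. Without duct replicate 1 the calls were 785 loci in TEB and 202 in duct, and without duct replicate 3 they were 961 and 516. Without TEB replicate 3 the duct loci were 833. Duct loci held a median of 8 distal sites, against 4 for TEB loci and for all loci. The part of the number of sites per locus in the counts of the gene lists below was not tested.

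The duct loci with the smallest p included those of a collagen, a phosphatase, a Wnt ligand and kinase regulators. Col6a2, a chain of collagen VI, had 5 of 8 distal sites called for duct, with summed levels of 152.1 and 123.7 CPM in duct and 28.8, 37.2 and 27.4 in TEB (log2 fold change -2.14 ± 0.2, adjusted p = 3.3e-21). Its strongest sites lay 10.2 and 18.6 kb from the TSS, and all 8 had lower values in TEB. Alpl, the tissue-nonspecific alkaline phosphatase, had 6 of 9 sites called and summed levels of 108.7 and 109.1 CPM in duct and 25.7, 34.0 and 41.5 in TEB (-1.68 ± 0.2, adjusted p = 1.2e-12). Wnt5b, a Wnt ligand, had 6 of 17 sites called and 135.4 and 124.8 CPM in duct against 44.2, 48.6 and 52.1 in TEB (-1.43 ± 0.09, adjusted p = 5.4e-12). For these 3 genes the promoter was more accessible in duct as well, with log2 fold changes of -1.89, -1.8 and -1.44.

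Ksr1, a scaffold of the RAF, MEK and ERK kinases, had the most sites called, 18 of 25, with 403.8 and 308.6 CPM in duct and 115.2, 146.3 and 117.9 in TEB (-1.49 ± 0.22, adjusted p = 8.6e-12). Dusp1, whose product removes phosphate from ERK and related kinases, had 93.0 and 71.1 CPM in duct and 14.4, 19.4 and 27.8 in TEB (-1.99 ± 0.33, adjusted p = 1.8e-12). Chrdl2, a chordin-like BMP antagonist, had 105.0 and 82.6 CPM in duct and 19.0, 20.2 and 29.6 in TEB (-2.03 ± 0.26, adjusted p = 4.9e-15), with no call at its promoter. Each of these genes showed both duct libraries above all 3 TEB libraries. Rab4a, a GTPase of endosome recycling, had 10 of 18 sites called (-1.61 ± 0.1), and Cubn, an endocytic receptor, had 5 of 10 (-1.74 ± 0.21).

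The TEB loci with the smallest p were short blocks of repeats or genes with sites spread over long distances. Ddx55, an RNA helicase gene, had 4 of 4 sites called, all soft-masked and within 2.25 kb, with 4.18 and 1.83 CPM in duct and 119.8, 60.5 and 62.3 in TEB (log2 fold change 4.7 ± 0.6, adjusted p = 1.7e-28). Cyp8b1, a bile acid enzyme gene of the liver, had 3 of 3 soft-masked sites called, with 12.8 and 17.0 CPM in duct and 232.4, 110.0 and 128.5 in TEB (3.4 ± 0.38, adjusted p = 3e-22). At both genes the distal sites formed 1 block of repeats, of at most 2.52 kb. The sites of the other genes were spread wider. Cntn6, a contactin of neural adhesion, had 6 of 8 sites called over 802.7 kb, of which 3 were soft-masked, with 2.56 and 3.35 CPM in duct and 27.8, 22.9 and 34.0 in TEB (3.26 ± 0.23, adjusted p = 8.8e-16). Epha6, an ephrin receptor, had 7 of 12 sites called over 1014.4 kb (2.98 ± 0.28), Olfm3, an olfactomedin, 6 of 8 over 788.3 kb (3.34 ± 0.15), and Olfr161, an olfactory receptor, 16 of 27 over 537.2 kb (2.24 ± 0.26). Most of these called sites were soft-masked too, 6 of 7 at Epha6, 6 of 6 at Olfm3 and 11 of 16 at Olfr161. The predicted genes Gm19965 (3.1 ± 0.22, 4 of 5 called sites soft-masked) and Gm21860 (2.55 ± 0.29, 3 of 7) completed the 8. The sites of Gm21860 are placed on chromosome Y, which female mice lack, so these counts are not a measure of accessibility on that chromosome. Of the 8 only Ddx55 had a promoter site that was tested, and it was more accessible in duct (-1.02). All 16 loci kept their call under the 6 other scalings and without each library in turn.

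**Figure D4:**
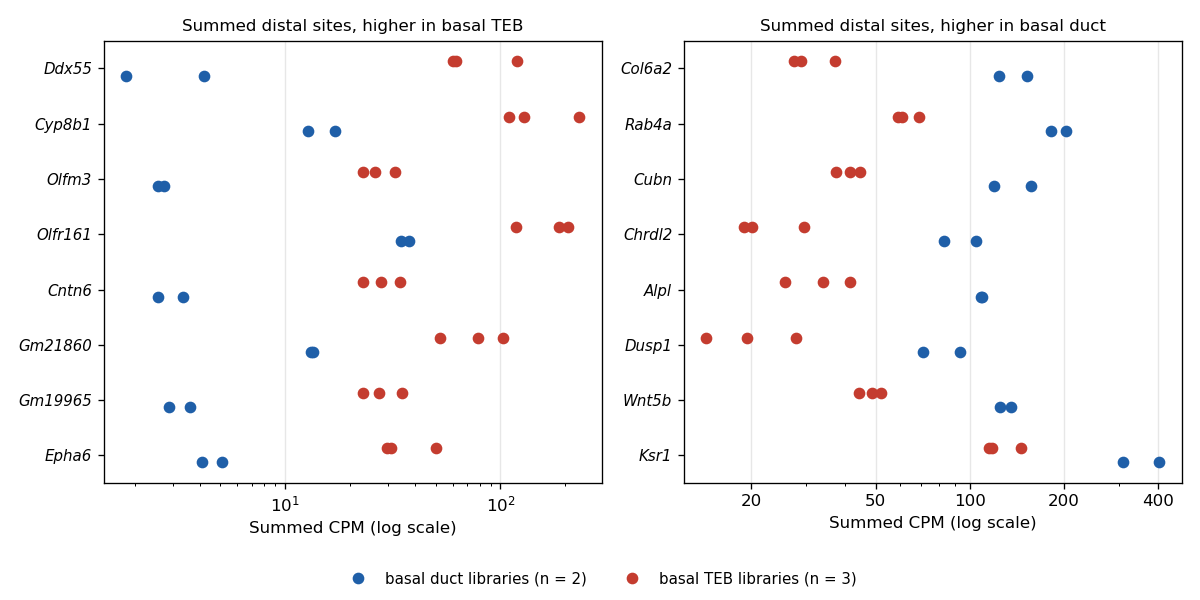
Summed CPM of the distal sites assigned to a gene (x axis, log scale) for the 8 gene loci per direction with the smallest p among those with 3 or more distal sites called in 1 direction and 0 in the other, with 1 point per library. The 3 basal TEB libraries and the 2 basal duct libraries did not overlap at any of the 16 loci.

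Genes of basal identity, contraction and matrix had more duct calls than TEB calls among their distal sums with the main scaling, where 10.8% of all loci were called for duct and 18.2% for TEB. Under all 6 other scalings 1 duct call held in each of the 3 lists, and 1 TEB call in the basal identity list. Of the 92 sites and gene loci recomputed under the alternatives, 43 lost their call without duct replicate 1, 30 without duct replicate 3 and 12 without TEB replicate 3, all of them gene loci. In the basal identity list 7 of 23 loci were more accessible in duct and 1 in TEB. Oxtr, the oxytocin receptor through which myoepithelial cells contract, had 117.3 and 97.2 CPM in duct and 30.9, 58.1 and 43.7 in TEB (log2 fold change -1.27 ± 0.29, adjusted p = 1.4e-06), and held under all 6 scalings. Trp63, the basal master regulator, had -0.6 and the Notch ligand Jag1 -0.57, both of which turned to 0.07 and 0.09 with TMM from promoter sites. Vim, an intermediate filament gene, was the TEB locus at 1.55, which rested on 3 soft-masked sites and was -0.11 without them. In the contractile list 5 of 19 loci were more accessible in duct and none in TEB, with Mrtfa, a cofactor of SRF, at -0.68 and the myosin kinase Mylk at -0.5 (0.17 with TMM from promoter sites). In the matrix list 10 of 29 loci were more accessible in duct and none in TEB. Col5a1, a chain of collagen V, had 127.0 and 112.0 CPM in duct and 44.2, 47.9 and 45.5 in TEB (-1.38 ± 0.1, adjusted p = 4.2e-11), and Postn, the matrix protein periostin, had 91.9 and 84.4 in duct and 39.1, 37.6 and 43.3 in TEB (-1.14 ± 0.09, adjusted p = 2.4e-07).

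In the 4 signalling lists the duct calls outnumbered the TEB calls with the main scaling, where 10.8% of all loci were called for duct and 18.2% for TEB. Few calls held under all 6 other scalings, with 1 in duct and 1 in TEB for Wnt, none and 1 for TGF-beta and BMP, 1 and none for growth factors and none for Notch. In the Wnt list 9 of 31 loci were more accessible in duct and 2 in TEB. Beside Wnt5b, the ligand Wnt10a had 89.8 and 87.9 CPM in duct and 45.3, 44.3 and 41.5 in TEB (-1.02 ± 0.04), and Wnt11 had -0.7. The 2 TEB loci were Rspo3, an R-spondin that boosts Wnt signals, with 2.67 and 2.13 CPM in duct and 17.5, 4.35 and 7.51 in TEB (1.98 ± 0.57, adjusted p = 0.0024), and the Wnt antagonist Dkk2 at 0.88. TEB replicate 1 was the highest at Rspo3 and the groups did not overlap, but only 1 of its 6 sites was called, and that site was soft-masked. In the TGF-beta and BMP list 8 of 24 loci were more accessible in duct, among them the inhibitory Smad6, with 255.9 and 257.1 CPM in duct and 115.7, 119.4 and 129.8 in TEB (-1.08 ± 0.05, adjusted p = 3.2e-08), Smad3 (-0.84) and the BMP antagonist Nog (-1.35). The BMP receptor Bmpr1b was the TEB locus, with 32.8 and 33.8 CPM in duct and 76.6, 68.8 and 55.6 in TEB (1.01 ± 0.14, adjusted p = 5.6e-05). Among growth factors and receptors 5 of 24 loci were more accessible in duct, led by Fgf2 (-1.82) and the growth hormone receptor Ghr (-1.07), and 1 in TEB, Fgf10, a stromal ligand of epithelial branching, which held only 0.581 and 1.22 CPM in duct and 4.63, 3.16 and 6.62 in TEB (2.42 ± 0.44). In the Notch list 5 of 16 were more accessible in duct and none in TEB, with Dll4 at -0.95 and Hes1 at -0.64 (0.03 with TMM from promoter sites).

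In the mature luminal list 5 of 18 loci (27.8%) were more accessible in TEB and 2 (11.1%) in duct, against 18.2% and 10.8% of all loci. The prolactin receptor Prlr had 18.1 and 16.6 CPM in duct and 49.4, 49.4 and 34.9 in TEB (1.36 ± 0.18, adjusted p = 2.9e-06). Foxa1, a pioneer factor of luminal cells, had 5.11 and 4.41 CPM in duct and 15.9, 12.7 and 7.95 in TEB (1.34 ± 0.3, adjusted p = 0.006). None of the 10 distal sites of Foxa1 was called alone. Tox3 had 31.0 and 35.3 in duct and 65.3, 48.3 and 72.4 in TEB (0.9 ± 0.2), 5 of its 6 TEB sites being soft-masked. For Tox3 the promoter went the other way, at -1.13, and luminal libraries held 116.5 to 128.8 CPM at its distal sites, above both basal groups. They also lay above both basal groups at Prlr (94.5 to 114.0 CPM) and Foxa1 (61.7 to 76.4), with luminal CPM scaled separately. The 2 duct loci were Tbx3 (-0.57) and Wnt4 (-0.47), which turned to 0.1 and 0.18 with TMM from promoter sites. Of 16 luminal progenitor loci 4 were more accessible in duct, led by the chemokine Cxcl1 (-1.1) and the integrin Itgb3 (-0.81), and of 18 pan-luminal loci 2 (11.1%, near the share of all loci), Epcam and Krt19 (both -0.73), with none in TEB in either list. Under all 6 other scalings 3 of the mature luminal TEB calls and no duct call of the 3 luminal lists held.

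In a list of transcription factors and cofactors (ETS, RUNX, TEAD, NFI, SOX and TFAP2 families, with YAP, TAZ, VGLL, TBX, SATB, BCL11 and BACH genes) 10 of 33 loci were more accessible in duct and 3 in TEB, of which no duct call and 1 TEB call held under all 6 other scalings. Runx1 had the largest distal sum of the list genes named here, with 981.8 and 885.8 CPM in duct and 447.4, 655.4 and 520.2 in TEB (-0.79 ± 0.18, adjusted p = 0.00089), and Nfix had -0.88 and the YAP paralogue Wwtr1 -0.76. The TEB loci were the chromatin organiser Satb1 (0.94), the TEAD cofactor Vgll3 (0.65, with 9 of its 10 called sites soft-masked) and Tbx2 (0.52). In the AP-1 and immediate-early list 4 of 13 were more accessible in duct and none in TEB, with Klf6 at -0.85, and Jun (-0.57) and Fos (-0.53), which turned to 0.09 and 0.12 with TMM from promoter sites. Of 34 axon guidance loci 6 (17.6%) were more accessible in TEB and 5 (14.7%) in duct, near the 18.2% and 10.8% of all loci. The netrin receptor Dcc had 5.46 and 8.37 CPM in duct and 41.7, 30.5 and 25.2 in TEB (2.23 ± 0.36, adjusted p = 1.7e-09), with 4 of its 6 called sites soft-masked. The netrin Ntn4 had 28.8 and 26.0 in duct and 8.23, 4.75 and 16.3 in TEB (-1.49 ± 0.49). The other lists had few calls. Of 8 EMT factor loci 2 were more accessible in TEB (Twist1 at 1.67 and Prrx1 at 0.72) and 1 in duct (Snai1 at -1.06). At both Twist1 and Prrx1 all 3 called sites were soft-masked. Of 16 cell cycle loci 1 was more accessible in TEB (Mybl2 at 1.75). Of 16 loci of developmental factors of other lineages 3 were more accessible in TEB (Foxa2 at 1.86, Pax6 at 1.09 and Dmrta1 at 0.78). Their called sites were soft-masked at 2 of 2, 2 of 2 and 2 of 4. In the same list 1 locus was more accessible in duct (Pax3 at -0.56, 0.1 with TMM from promoter sites).

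Of the genes that the study names for TEB, 2 of 5 loci (Htr5b and Dmrta1) were more accessible in TEB, against 18.2% of all loci. Of those it names for duct 3 of 7 (Postn, Mylk and Col16a1) were more accessible in duct, against 10.8% of all loci. Under all 6 other scalings 1 TEB call and no duct call held. The distal sums of Myh11, Myl9, Acta2 and Lgr5 were not called. Of the 7 duct genes 2 promoters (Postn and Lgr5) were called for duct, against 34.7% of all genes with a promoter site. The study chose these genes on the same tissues, some of them on these samples, so they are not independent evidence of direction. It named Htr5b and Dmrta1 for accessible chromatin at their TSSs in TEB, together with expression. Nrg1, Sema3b, Meox1 and Ccnd2 were named from single-cell RNA, and the distal sums of Nrg1, Meox1 and Ccnd2 were not called. The duct genes other than Lgr5 were also named from single-cell RNA, so for them RNA is set beside accessibility. Htr5b, a serotonin receptor, had 6 of 6 distal sites called, with 2.79 and 4.41 CPM in duct and 53.5, 11.5 and 23.4 in TEB (3.02 ± 0.69, adjusted p = 6.1e-07), and its promoter was 1.1 higher on the log2 scale. Dmrta1 had 33.8 and 35.0 CPM in duct and 46.3, 64.9 and 65.8 in TEB, with its promoter at 1.47. At both genes the distal sum and the promoter were called for TEB. Nrg1, an ErbB ligand, had 329.8 and 315.3 CPM in duct and 224.7, 363.1 and 302.9 in TEB (-0.12 ± 0.2, adjusted p = 0.73), a direction that turned with several scalings, and Ccnd2, a cyclin, had 32.8 and 39.6 in duct and 34.5, 39.2 and 21.6 in TEB (-0.18 ± 0.29, adjusted p = 0.66). For both the groups overlapped. Lgr5, a Wnt-linked receptor of basal ducts, was at -0.53 in its distal sum (adjusted p = 0.1) and at -1.75 at its promoter (adjusted p = 7.1e-06).

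Called sites lay next to sites of the same direction. Of neighbouring called distal sites up to 5 kb apart 92.9% (2272 of 2446) had the same direction, against 66.9% at over 100 kb. A called duct site was followed by another duct site in 92.1% of such pairs within 5 kb and in 45.5% over 100 kb, where duct sites were 39.3% of all called distal sites. Clusters were built of called sites of any class and 1 direction, each within 25 kb of the next. Duct sites clustered more often, with 4850 (32.5%) of 14924 in 1154 clusters of 3 or more, against 1671 (13.3%) of 12605 TEB sites in 427. Of the sites in clusters of 8 or more, 53.6% were soft-masked in TEB and 0.129% in duct. This difference was not tested.

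The 4 largest duct clusters lay around Socs3, Dusp1 and Synpo and in the intergenic stretch between Cebpb and Ptpn1. The cluster at chr11:117888768-118030122 held Socs3, the inhibitor of JAK and STAT signalling, and Pgs1, with 27 of 40 sites called and 38 of 40 lower in TEB. Its called sites summed to 883.0 and 762.7 CPM in duct and 295.2, 375.4 and 360.8 in TEB, a 2.39-fold higher level in duct. The cluster at chr2:167759970-167892211 had only intergenic called sites, assigned by distance to Cebpb, a factor of mammary differentiation, or Ptpn1, a tyrosine phosphatase, with 25 of 42 sites called. It summed to 811.3 and 711.1 CPM in duct and 267.4, 353.2 and 289.2 in TEB (2.51-fold). In both clusters the sums of the 3 TEB libraries lay below those of both duct libraries.

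The cluster at chr17:26478292-26622025 held Dusp1 and Ergic1, with 17 of 39 sites called, and summed to 389.7 and 338.1 CPM in duct and 94.6, 120.6 and 104.7 in TEB (3.41-fold), the largest fold of the 4. The cluster on chromosome 18 of Synpo, an actin-bundling gene, and Myoz3 had 17 of 30 sites called and summed to 418.9 and 311.9 CPM in duct and 116.2, 158.6 and 123.2 in TEB (2.75-fold). In all 4 clusters none of the called sites was soft-masked and every called site had both duct libraries above the 3 TEB libraries. Under all 6 other scalings 8, 10, 12 and 7 of the called sites near Socs3, Cebpb, Dusp1 and Synpo kept their call, and without duct replicate 1 the calls were 8, 6, 7 and 3.

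The 4 largest TEB clusters differed in repeat content, from 5 of 24 called sites soft-masked to all of them. The cluster at chr8:123540533-123623885 between Gas8 and Rhou, where the annotation places an array of 5S ribosomal RNA genes, had 35 of 49 sites called, 26 of them within 5S gene models and all soft-masked. Its called sites summed to 556.3 and 489.5 CPM in duct and 1743.3, 606.7 and 973.6 in TEB. The change was small (median log2 fold change 1.07) and TEB replicate 2 lay near the duct libraries, and no site was called without either duct library and 4 without TEB replicate 1. The cluster at chr9:3001674-3034527, a run of predicted genes from Gm10722 to Gm17535, had all 24 sites called and held 9761.4 and 9566.2 CPM in duct and 57809.4, 29337.5 and 41065.2 in TEB. These 24 soft-masked sites alone took from 0.957% to 5.78% of a library, and their unscaled counts were 84032 and 62874 in duct and 112416, 74173 and 93000 in TEB. All 24 kept their call without each library in turn.

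The cluster at chr8:20574420-20704785 near the predicted gene Gm21119 had 27 of 27 sites called, 15 of them soft-masked, and summed to 104.9 and 98.1 CPM in duct and 1004.3, 289.5 and 389.5 in TEB. The cluster at chr11:3100330-3177652 over Sfi1, a gene of centrin-binding spindle protein, had 24 of 29 sites called and only 5 soft-masked, with 200.8 and 204.9 CPM in duct and 889.6, 506.7 and 687.1 in TEB. All 3 TEB libraries lay above both duct libraries in the 2 clusters. The luminal libraries, scaled separately, also lay above both basal duct libraries there, at 377.0 to 500.5 CPM near Gm21119 and 494.2 to 722.1 over Sfi1. The same was found in the chromosome 9 cluster (15504.5 to 32449.4). Between Gas8 and Rhou the luminal libraries held 216.7 to 362.1 CPM, below both basal duct libraries. All 27 and all 24 called sites kept their call under the 6 other scalings, whereas without duct replicate 1 the calls were 19 and 9. Repeat copies share reads, so counts at the soft-masked sites of these clusters are uncertain as to copy.

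**Figure D5:**
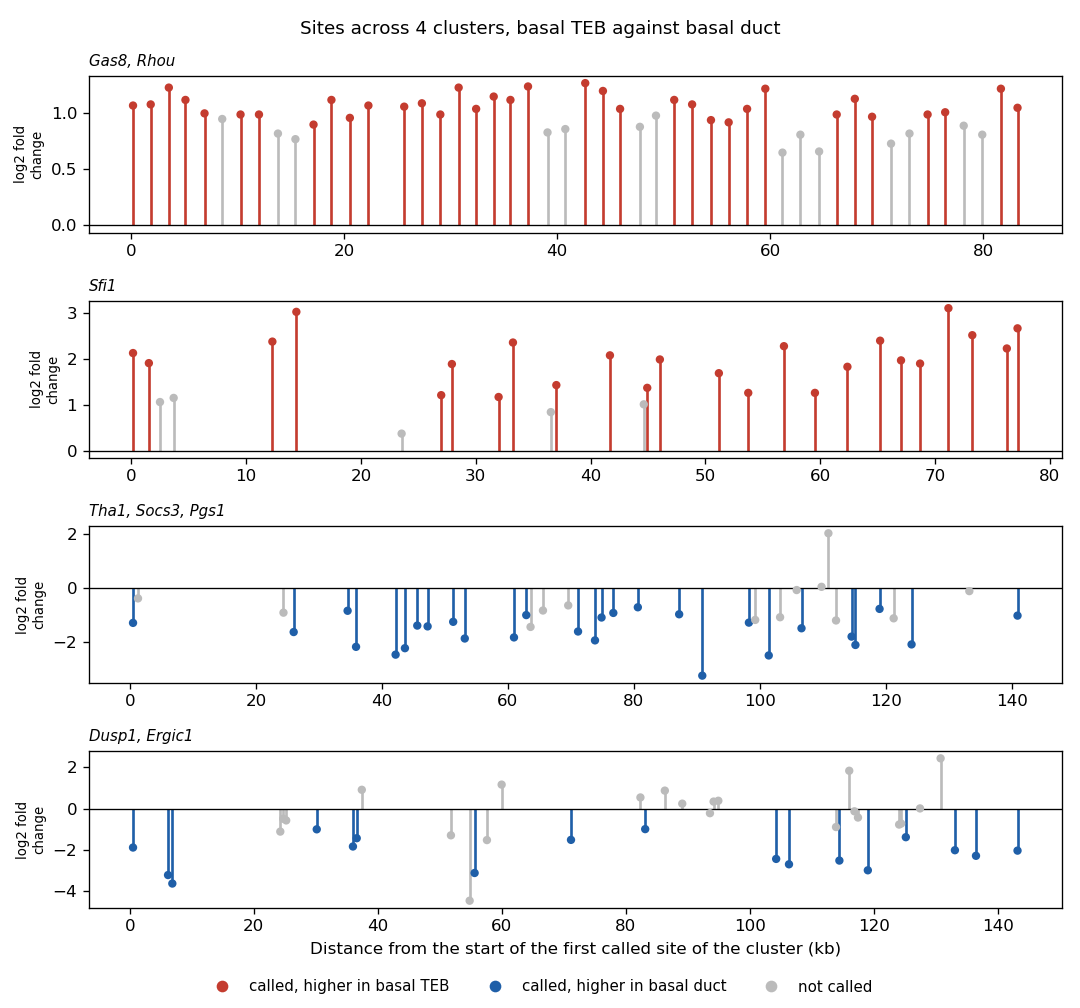
Log2 fold change (basal TEB over basal duct, y axis) of each tested site along 4 clusters, against the distance in kb from the start of the first called site (x axis), with called sites in colour and sites not called in grey. In the Gas8 and Rhou and the Sfi1 clusters all sites lay above 0, and in the Socs3 and Dusp1 clusters the called sites, with a median of -1.49 and -2.03, alternated with sites that were not called.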

How the data were processed

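Basal TEB and basal duct libraries were grouped by their sample labels. The authors trimmed adapters and aligned reads to mm10 (Bowtie2, 2.3.4.3 in the submitters' processing notes), removed duplicates, called peaks with MACS2 on pooled replicates of each population, merged them, removed blacklisted regions and counted reads per peak in SeqMonk. The deposited values are these raw counts per peak, 1 file per library. Pooled calling in each population and unequal depth can both affect which sites exist and which pass a test.

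Sites were annotated against GENCODE vM21 (41451 TSSs of protein-coding genes). As in the study's methods, edgeR 4.0.16 (R 4.3.3) fitted TMM factors and classic dispersions in the 5 libraries, and its exact test was applied to all sites with Benjamini-Hochberg FDR 0.05, then to counts summed over the distal sites (over 10 kb) of each nearest gene. The biological coefficient of variation was 0.268 for sites and 0.187 for loci. CPM is TMM-scaled, and the SE is that of the difference between group means of log2 CPM (prior count 2). Luminal contrasts used the same exact test, and the interaction used the quasi-likelihood test over 11 libraries after filterByExpr. P-values rest on 2 and 3 libraries. The exact test over sites was also run on counts simulated from the means and dispersion of the real fit, with the outcome not given here. The 18 alternatives changed the test, scaling, filter, depth, masking, libraries or replicate block, DESeq2 1.42.0 included, and fits with loess or GC offsets or the block also used the quasi-likelihood test.

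Named sites, loci and clusters followed fixed rules: the 6 sites and 8 loci per direction with the smallest p, the 4 largest clusters per direction, up to 3 loci per direction in each of 18 lists (some are left out), the genes that the study names (some left out) and 2 soft-masked sites. Members and lists were chosen with earlier results of these data known. Motifs (21) were searched in central windows of 300 bases.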

Additional observations from a re-analysis of the deposited data

Results flagged for a closer look

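At all 12 named distal sites and all 16 named gene loci the change from duct to TEB differed between basal and luminal cells (edgeR quasi-likelihood interaction test over 11 libraries, adjusted p at most 0.00079). The basal libraries that chose these sites and loci also enter this test, so the size of each difference is a description.

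The basal log2 change exceeded the luminal one by 3.58 at the site near 1500015O10Rik, 4.94 near Trpc7, 3.66 near Rgs6, 3.19 near N6amt1, 3.27 at Gtf2a1 and 3.66 near Spdye4c. At the duct sites the difference was -2.47 near Brinp1, -2.76 near Clic6, -3.34 at Kifc3, -3.66 at Fmnl2, -3.63 near Dusp1 and -3.41 near Pmp22. Among the distal sums it was 3.28 for Ddx55, 3.97 for Cyp8b1, 3.78 for Olfm3, 1.81 for Olfr161, 3.28 for Cntn6, 2.09 for Gm21860, 2.71 for Gm19965 and 2.97 for Epha6. For the duct loci it was -2.03 for Col6a2, -1.64 for Rab4a, -1.61 for Cubn, -2.15 for Chrdl2, -1.97 for Alpl, -2.17 for Dusp1, -1.26 for Wnt5b and -1.79 for Ksr1.

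Of the 16 loci only Ddx55 (1.4, adjusted p = 1e-05) and Olfr161 (0.43, adjusted p = 0.03) also passed the exact test between luminal TEB and luminal duct, both in the TEB direction. At Epha6 the luminal libraries held 26.7 to 30.6 CPM, close to the basal TEB libraries (29.7 to 50.4) and above basal duct (4.11 to 5.11), with luminal CPM scaled separately.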

How the results depend on the processing

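Of 1652 values recomputed over 92 sites and gene loci, 1400 kept their direction and side of the threshold, 224 lost the call, 4 gained one and 24 changed sign. The soft-masked sites and loci Ddx55 and Cyp8b1 gave no value without soft-masked sites. The TEB libraries held a median of 6 counts per site, so a lower level in TEB often rested on few counts. With the deeper libraries thinned to the smallest one, the calls were 5333 in TEB and 4384 in duct over all sites, 4617 and 2110 at distal sites, 68 and 1607 at promoter sites, and 409 duct loci. The cause of the other changes was not tested.

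Leaving out 1 library gave 985 to 15045 TEB and 1017 to 18209 duct calls over all sites, 855 to 12818 and 695 to 8284 at distal sites, 16 to 147 and 178 to 6996 at promoter sites, and 785 to 2744 and 202 to 1705 loci. The lowest values came without duct replicate 1.

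TMM from promoter sites gave 21927 TEB and 2393 duct calls over all sites, 17699 and 1464 distal, 772 and 543 promoter, and 5544 and 109 loci. Library totals gave 9021 duct calls over all sites, 4402 distal, 3159 promoter and 624 loci, and 195 promoter calls for TEB. Loess offsets gave 6087 duct calls over all sites, 3722 distal and 1326 promoter, and 648 promoter calls for TEB, and GC offsets gave 1470 and 299 promoter calls for duct and TEB. The filterByExpr filter gave 6572 duct calls over all sites, 3280 distal, 2210 promoter and 306 loci, and 372 promoter calls for TEB. The DESeq2 Wald test gave 5890 duct calls over all sites, 2474 distal, 2666 promoter and 720 loci. Without soft-masked sites the TEB calls were 5696 over all sites, 4461 distal and 1568 loci. Sites over 50 kb from a TSS alone gave 7042 TEB and 3447 duct calls, loci by nearest gene of any biotype 4312 TEB loci, and loci that took in all sites of a gene 5665 duct loci.

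The labels give replicate numbers 1 and 3 to both groups. Same-numbered libraries correlated at 0.0409 and 0.0651 in their deviations, and with 2 pairs the numbers were taken to name the libraries only. With the number as a replicate block the calls were 12913 in TEB and 16550 in duct over all sites, 11128 and 7385 distal, 114 and 6588 promoter, and 2644 and 1716 loci. The block together with GC offsets gave 292 TEB and 2584 duct promoter calls and 2342 duct loci.

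With TMM from promoter sites the log2 fold changes of distal sums turned to 0.07 for Trp63, 0.09 for Jag1, 0.17 for Mylk, 0.08 for Col16a1, 0.1 for Tbx3, 0.18 for Wnt4, 0.03 for Hes1, 0.09 for Jun, 0.12 for Fos, 0.1 for Pax3, 0.53 for Nrg1, 0.45 for Ccnd2, 0.36 for Acta2 and 0.12 for Lgr5. Vim was -0.11 without soft-masked sites. Nrg1 was also 0.1 with library totals, 0.14 with loess offsets and with thinning, 0.29 after filterByExpr and 0.05 without TEB replicate 1 (-0.29 to 0.05 with 1 library left out). Ccnd2 was 0.02 with library totals, 0.22 after filterByExpr and 0.11 without TEB replicate 3 (-0.37 to 0.11 with 1 library left out), and Acta2 was 0.12 after filterByExpr. Nrg1, Ccnd2, Acta2 and Lgr5 were not called in the main analysis.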

Other observations

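Further clusters of TEB sites, ranked below the 4 described, included 19 sites over 50.4 kb next to Snurf on chromosome 7 (median log2 fold change 2.54, with 16 soft-masked) and 17 sites over 37.1 kb nearest Gpm6a on chromosome 8 (2.80, none soft-masked). All of the called sites of both clusters kept their call under the 6 other scalings. Further clusters of duct sites included 16 sites at Ksr1 (median -2.17) and 16 sites at Mical2, an actin-oxidising enzyme (-1.76), of which 10 and 3 kept their call under all scalings. These clusters were picked after their values were seen.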
